A study of Homo sapiens with 9 samples.

Results

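The receptors for the cytokines BAFF and APRIL are 3 genes of the TNF receptor family: TNFRSF13B, which encodes TACI, TNFRSF13C, which encodes the BAFF receptor, and TNFRSF17, which encodes BCMA. They were chosen by name, as the family that shares these ligands, with earlier results of these data known. All 3 were present among the 57500 genes counted. RNA had been sequenced from BJAB, a long-established line of human B cells, labelled as Burkitt lymphoma and untreated. Cells made to carry the short TACI isoform (TACI short), cells made to carry the long one (TACI long) and parental cells gave 3 libraries each, and all 9 came from sorted cells. The titles speak of stable transfection and the design text of transduction; the promoter, the vector, the number of clones and the sequence of either construct are not given in the sources used here. Nothing in the labels says that replicates came from separate cultures, so the spread behind each p-value may be technical.

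BAFF binds all 3 receptors, whereas APRIL binds TACI and BCMA. The BAFF receptor keeps mature B cells alive, mainly by releasing the kinase NIK from TRAF3 and so starting non-canonical NF-kB signalling. TACI is a receptor of activated and memory B cells that drives class switching and also limits B-cell numbers, and BCMA keeps long-lived plasma cells alive. The extracellular part of TACI carries a pair of cysteine-rich domains, and the short isoform, made by leaving out an exon, lacks the first of them.

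The study set the isoforms apart, so the exon that separates them in the annotation is shown first. In GENCODE release 29 on GRCh38 (hg38), TNFRSF13B-201 has 5 exons and encodes 293 amino acids, and TNFRSF13B-206 lacks exon 2 and encodes 247. Exon 2 lies at chr17:16952446-16952583 on the minus strand, spans 138 bases or 46 codons, and is wholly coding. In the lines that follow, read 5′ to 3′ along the transcripts, capitals mark exon 2, and the 15 lower-case bases on either side belong to exons 1 and 3 of TNFRSF13B-201.
TNFRSF13B-201: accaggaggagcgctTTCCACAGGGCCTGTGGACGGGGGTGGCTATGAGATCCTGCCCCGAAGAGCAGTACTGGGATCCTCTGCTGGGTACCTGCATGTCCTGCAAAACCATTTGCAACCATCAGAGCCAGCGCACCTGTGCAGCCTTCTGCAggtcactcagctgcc
TNFRSF13B-206: accaggaggagcgctggtcactcagctgcc
The deposited values are counts per gene over all exons, so reads from exon 2 are not counted apart, and RNA of an introduced TACI cannot be told apart from RNA of the cell's own gene.

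TNFRSF13B (ENSG00000240505, hg38 chromosome 17, 16929816 to 16972118, minus strand) has 3550 exonic bases in 10 merged exons. It shares 615 of them with the pseudogene TBC1D27P, which had 4 counts over all 9 libraries. TNFRSF13C (ENSG00000159958, chromosome 22, 41922023 to 41926818, minus strand) has 3944 exonic bases. TNFRSF17 (ENSG00000048462, chromosome 16, 11965107 to 11968068, plus strand) has 1118 exonic bases and lies inside the span of the opposite-strand gene NPIPB2, with 0 exonic bases in common. The libraries had been made without keeping the strand.

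Total counts per library ran from 40322136 to 50079203, and levels are given in CPM, the count divided by that total and multiplied by 1000000. Of the 57500 genes, 16672 passed the filter on low counts, the 3 receptors among them. TACI short replicates 2 and 3 stood apart: 32882 and 32209 genes had a count in them, against 24307 to 25938 in the other 7 libraries. Myeloid markers summed to 128 and 124 CPM in those 2 libraries and to 28.7 CPM in TACI short replicate 1, against 15.5 to 29.5 CPM in TACI long and 11.7 to 22.3 CPM in parental cells, with CSF1R the most abundant. B-cell markers, all 6 of them above 1 CPM in each group, summed to 2963 to 3098 CPM in TACI short, 3275 to 3313 CPM in TACI long and 3681 to 3807 CPM in parental cells. Plasma-cell markers summed to 572 to 627, 804 to 851 and 859 to 907 CPM in those groups, with SDC1 and IRF4 under 0.3 CPM in every group mean. T-cell and NK-cell markers summed to 11.1 to 12.7 CPM in TACI short, 15.7 to 16.1 CPM in TACI long and 14.6 to 15.6 CPM in parental cells. Epithelial and fibroblast markers summed to 80.7 to 89.2, 113 to 120 and 98.0 to 100.2 CPM in those groups, most of it EPCAM. In bulk RNA, fewer cells with a transcript and less of it per cell cannot be told apart.

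Both engineered lines held far more TNFRSF13B RNA than parental cells, and they differed from each other in it. TNFRSF13B stood at 2964, 2965 and 2655 CPM in TACI short replicates 1, 2 and 3, at 691, 704 and 738 CPM in TACI long, and at 28.8, 15.2 and 14.6 CPM in parental cells. The 3 groups did not overlap. The transcript took 0.265 to 0.297% of all counts in TACI short and 0.0691 to 0.0738% in TACI long. By counts per kilobase of exon it ranked 32 among the 16672 tested genes in TACI short, 185 in TACI long and 6096 in parental cells. These ranks depend on the length used, here 3550 merged exonic bases, where TNFRSF13B-201 has 1357 and the length of the introduced RNA is not known.

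TNFRSF13B rose by 7.06 ± 0.30 on the log2 scale in TACI short against parental cells (standard error; adjusted p = 1.21e-06) and by 5.18 ± 0.28 in TACI long against parental cells (adjusted p = 6.68e-06), by edgeR's quasi-likelihood test with p-values adjusted by the Benjamini-Hochberg method. The TACI short line exceeded TACI long by 1.88 ± 0.23 (adjusted p = 0.000332), a 3.68-fold difference in the fit and a 4.02-fold ratio of mean CPM. The gene was introduced into both lines, so the rises over parental cells check that TNFRSF13B RNA was added and do not test a response. Counts per gene cannot show which isoform a line carries.

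The parental libraries also held TNFRSF13B counts, and they differed more than those of any other receptor and group. The coefficient of variation of TNFRSF13B was 41.2% in parental cells, where counting error alone gives 3.35%, against 6.25% in TACI short and 3.36% in TACI long. Parental replicate 1 was 1.93 times the mean of replicates 2 and 3. Of 9612 tested genes with a parental mean of at least 5 CPM, TNFRSF13B was the only 1 with a ratio that high. The fold against parental cells therefore rests in part on that library: without it the log2 fold change was 7.45 in TACI short and 5.59 in TACI long.

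TNFRSF17 went in opposite directions in the engineered lines. It was lower than parental in TACI short and higher than parental in TACI long, and the level in TACI long was the highest of the 3 groups. TNFRSF17 had 2.34, 2.75 and 2.76 CPM in TACI short (104, 111 and 138 counts), 10.4, 11.6 and 10.4 CPM in TACI long (442, 531 and 447 counts), and 3.87, 3.79 and 4.63 CPM in parental cells (178, 165 and 216 counts). Every TACI short library lay below every parental one, and every TACI long library lay above, with no overlap. Means were 2.62 ± 0.239, 10.8 ± 0.719 and 4.10 ± 0.464 CPM in TACI short, TACI long and parental cells (SD, n = 3 each).

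In edgeR's quasi-likelihood test with Benjamini-Hochberg adjustment, TNFRSF17 fell by 0.78 ± 0.11 on the log2 scale in TACI short against parental cells, or 1.71-fold (adjusted p = 1.65e-06). In TACI long against parental cells it rose by 1.40 ± 0.10, or 2.64-fold (adjusted p = 7.88e-11). The difference between the lines, tested directly in the same edgeR fit, was -2.18 ± 0.11 for TACI short against TACI long, a 4.52-fold lower level (adjusted p = 2.31e-14). Among the 16672 tested genes, 94.7% had a smaller or equal absolute log2 fold change in that last contrast, 76.5% did in TACI short against parental and 94.4% in TACI long against parental. Both comparisons with parental cells share the same 3 parental libraries. Without TACI short replicates 2 and 3, which stood apart, TNFRSF17 gave -0.90 in TACI short against parental cells and -2.31 in TACI short against TACI long (edgeR adjusted p = 2.43e-05 and 2.77e-14), the remaining TACI short library being assumed to vary like the other groups. The TACI short libraries held few TNFRSF17 counts: their coefficient of variation was 9.14%, where counting error alone gives 9.22%.

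TNFRSF13C moved little. It had 55.9, 55.0 and 47.5 CPM in TACI short, 43.2, 48.1 and 47.7 CPM in TACI long, and 60.4, 52.7 and 54.7 CPM in parental cells. TACI short overlapped with both of the other groups, while every TACI long library lay below every parental one. Means were 52.8 ± 4.59 CPM in TACI short, 46.3 ± 2.71 CPM in TACI long and 55.9 ± 3.98 CPM in parental cells (SD, n = 3 each).

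TNFRSF13C fell by 0.27 ± 0.08 on the log2 scale in TACI long against parental cells, a 1.21-fold lower level (adjusted p = 0.00936, edgeR's quasi-likelihood test with Benjamini-Hochberg adjustment). For TACI short against parental cells the same edgeR test gave -0.21 ± 0.07 (adjusted p = 0.0262). That call was lost with upper-quartile factors (-0.13, adjusted p = 0.115), with total counts alone (-0.08, adjusted p = 0.340), without TACI short replicates 2 and 3 (-0.09, adjusted p = 0.320), and without parental replicate 1 or either of those TACI short replicates singly. TACI short against TACI long gave 0.06 ± 0.08 (adjusted p = 0.503), with no call.

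Calls were common in these data, so a called receptor is not in itself unusual. Of 16672 tested genes, 62.6% were called in TACI short against parental cells, 31.5% higher and 31.1% lower, and 3 of 3 receptors were called there, 1 of them higher. For TACI long against parental cells 51.1% of genes were called, 25.2% higher and 25.9% lower, and 3 of 3 receptors, 2 of them higher. Between the lines 68.8% of genes were called, 35.2% higher and 33.6% lower in TACI short, and 2 of 3 receptors, 1 in each direction. In each comparison the receptors called higher take in TNFRSF13B, which had been introduced, so its calls against parental cells followed from the design. Scaling by total counts alone turned the share of calls that were higher to 64.6% in TACI short against parental cells, where TMM factors gave 50.4%, and to 62.4% between the lines, where they gave 51.2%. Groups that did not overlap in CPM were seen for 66.4, 60.7 and 71.6% of tested genes in the same comparisons.

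**Figure D1:**
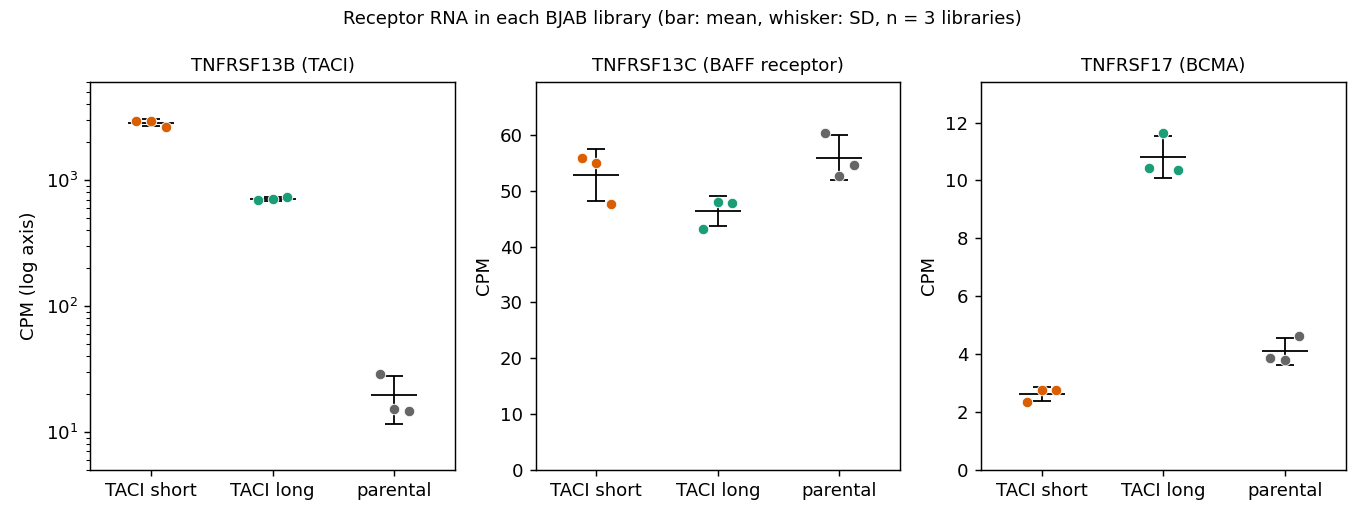
CPM of TNFRSF13B (log axis), TNFRSF13C and TNFRSF17 (linear axes from 0) in each library; points are libraries, bars the mean and whiskers the SD of 3. TNFRSF13B runs from 14.6 to 2965 CPM without overlap between groups, TNFRSF13C stays between 43.2 and 60.4 CPM, and TNFRSF17 is highest in TACI long and lowest in TACI short.

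Divided by exon length, so that genes can be set beside each other, the receptors stood in another order in the engineered lines than in parental cells. In TACI short the level of TNFRSF13B was 806 ± 50.4 RPKM (CPM per kilobase of exon), that of TNFRSF13C was 13.4 ± 1.16 and that of TNFRSF17 was 2.34 ± 0.214 (SD, n = 3). In TACI long the same levels were 200.3 ± 6.74 for TNFRSF13B, 11.7 ± 0.687 for TNFRSF13C and 9.68 ± 0.643 for TNFRSF17. In parental cells they were 5.50 ± 2.27 for TNFRSF13B, 14.2 ± 1.01 for TNFRSF13C and 3.66 ± 0.415 for TNFRSF17. By these merged exon lengths TNFRSF13B led in both engineered lines and TNFRSF13C in the parental line.

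Some neighbours in that order were close. In parental cells TNFRSF13B ran from 4.10 to 8.11 RPKM and TNFRSF17 from 3.39 to 4.14, so their ranges overlapped. In TACI long the lowest TNFRSF13C value was 10.95 RPKM and the highest TNFRSF17 value 10.4, a gap smaller than either SD. In TACI short all 3 receptors were far apart.

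**Figure D2:**
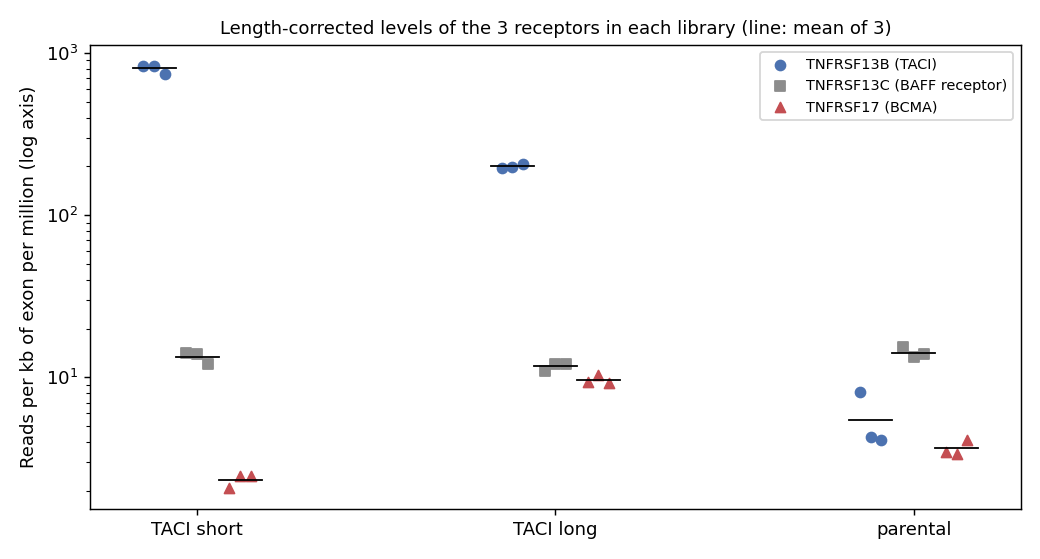
RPKM (log axis) of the 3 receptors in each library of TACI short, TACI long and parental cells; horizontal lines are means of 3. TNFRSF13B is at about 806 in TACI short and 200.3 in TACI long and TNFRSF13C leads in parental cells, while TNFRSF17 approaches TNFRSF13C in TACI long.

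As a share of the reads per kilobase summed over the 3 receptors, TNFRSF13B made up 98.1 ± 0.0112% in TACI short, 90.3 ± 0.490% in TACI long and 23.0 ± 6.26% in parental cells. TNFRSF13C made up 1.63 ± 0.0430%, 5.30 ± 0.209% and 61.1 ± 3.59% in those groups. TNFRSF17 made up 0.286 ± 0.0388% in TACI short, 4.37 ± 0.335% in TACI long and 15.9 ± 2.93% in parental cells. No group overlapped another for any receptor, and each of the 9 exact two-sided permutation tests gave p = 0.1, the smallest that 3 libraries against 3 allow. Because TNFRSF13B had been introduced and the shares add up to the whole, these separations follow from its level and are no test of TNFRSF13C or TNFRSF17. The share of TNFRSF17 was lower in TACI long than in parental cells although its level was higher there. The shares depend on the length used: with the length of the first-numbered GENCODE transcript of each gene, an alternative added after the data were seen, TNFRSF13B and TNFRSF13C came to 42.9% and 44.1% in parental cells, and TNFRSF13B to 99.2% in TACI short and 95.9% in TACI long. In parental replicate 1 the order turned with that length, TNFRSF13B at 52.5% and TNFRSF13C at 37.9%.

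The ratio of TNFRSF17 to TNFRSF13C leaves out the introduced gene and does not depend on the scaling between libraries. Per kilobase it was 0.148, 0.177 and 0.204 in TACI short, 0.853, 0.855 and 0.766 in TACI long, and 0.226, 0.254 and 0.299 in parental cells. TACI short lay below parental cells and TACI long above both, with no overlap. Each exact permutation test again gave p = 0.1, the smallest possible here.

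**Figure D3:**
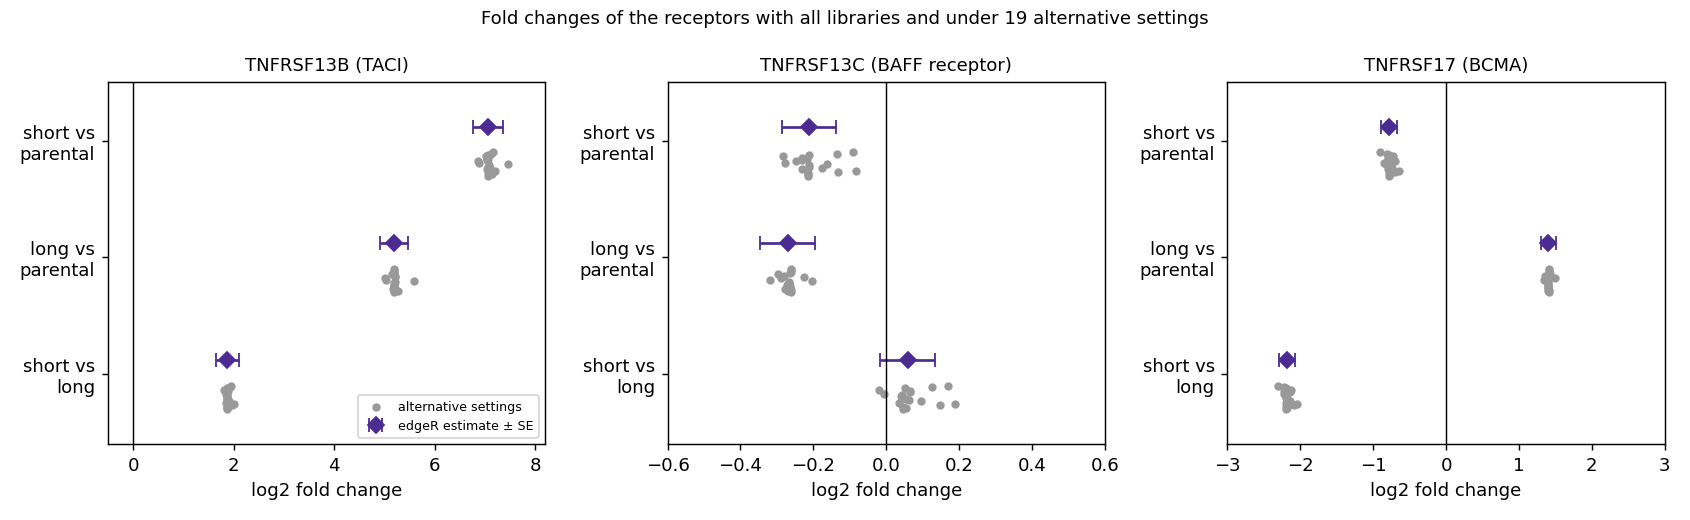
Log2 fold changes of each receptor in the 3 comparisons; diamonds are the edgeR estimates with standard errors and grey points the 19 alternative settings, spread vertically for legibility. In each comparison the grey points of TNFRSF13B and TNFRSF17 stay on one side of 0, while TNFRSF13C in TACI short against TACI long lies on both sides.

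The nearest tested genes on either side of each receptor were measured as well. Those closest to TNFRSF13B are MPRIP, which encodes a regulator of myosin phosphatase and starts 70427 bases away, and the zinc finger gene ZNF624, 275960 bases away. MPRIP had log2 fold changes of -0.04 in TACI short and 0.10 in TACI long against parental cells (edgeR adjusted p = 0.419 and 0.0620). ZNF624 rose by 0.38 in TACI short (edgeR adjusted p = 0.0133, the call lost under 4 alternatives) and had 0.07 in TACI long (adjusted p = 0.686). Near TNFRSF13C, SREBF2, a transcription factor of cholesterol synthesis 14715 bases away, fell by 0.84 in TACI long (edgeR adjusted p = 2.00e-13) and had -0.06 in TACI short (adjusted p = 0.258). CENPM, a centromere gene 11903 bases away on the other side, rose by 0.31 in TACI long (edgeR adjusted p = 6.88e-05) and had -0.09 in TACI short (adjusted p = 0.180).

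Beside TNFRSF17, the translation termination factor GSPT1, 49025 bases away, fell by 0.43 on the log2 scale in TACI short (edgeR adjusted p = 3.46e-09) and had -0.08 in TACI long (adjusted p = 0.0917). The sorting nexin SNX29, 8669 bases away, rose by 0.15 in TACI short (edgeR adjusted p = 0.0116, the call lost under 3 alternatives) and by 0.43 in TACI long (adjusted p = 1.28e-07). NPIPB2, whose span holds TNFRSF17, had -0.34 in TACI short and 0.35 in TACI long against parental cells, neither called (edgeR adjusted p = 0.271 and 0.291), and only 327 counts over the 9 libraries. Its log2 fold change of TACI short against TACI long was -0.69 (edgeR adjusted p = 0.0248, the call lost under 5 alternatives), in the direction of TNFRSF17. These genes share 0 exonic bases. Without strand, a read from an intron of NPIPB2 that falls in an exon of TNFRSF17 cannot be told apart from TNFRSF17 RNA.

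Genes whose level ran most like that of a receptor were found by Pearson correlation of log2 CPM over the 9 libraries. For this the CPM were scaled by the TMM factors, with a small constant added to the counts. The libraries fall into the 3 groups, so the correlations are descriptions of group patterns. Closest to TNFRSF13B was NMU, which encodes the neuropeptide neuromedin U, with r = 0.997 and means of 93.0, 53.8 and 19.1 CPM in TACI short, TACI long and parental cells. ZDBF2 (r = 0.997) and A4GALT, which encodes the synthase of the glycolipid antigen CD77 (r = 0.996), followed, and 224 genes reached 0.95. Closest to TNFRSF17 were the lincRNA AC144831.1 (r = 0.995), the acyltransferase gene LPGAT1 (r = 0.992) and UGP2, which encodes the enzyme that makes UDP-glucose (r = 0.992), and 580 genes reached 0.95. UGP2 averaged 90.1, 143 and 99.7 CPM in TACI short, TACI long and parental cells. For TNFRSF13C only 2 genes reached 0.95: FGD2, a gene for an activator of the GTPase Cdc42 (r = 0.954), and the kinesin light chain gene KLC2 (r = 0.953). ING5, which encodes a chromatin reader, came next (r = 0.947). The receptors themselves ran apart, with r = -0.66 between TNFRSF13B and TNFRSF13C, -0.09 between TNFRSF13B and TNFRSF17 and -0.30 between TNFRSF13C and TNFRSF17.

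The ligands were near the limit of detection in these cells. TNFSF13, which encodes APRIL, had 43, 33 and 39 counts in TACI short, 26, 30 and 22 in TACI long, and 36, 37 and 19 in parental cells. Its groups overlapped with parental cells, and it was not called in any comparison (edgeR adjusted p = 0.529 for TACI short and 0.627 for TACI long against parental cells, and 0.211 between the lines). It shares 1263 exonic bases with the read-through gene TNFSF12-TNFSF13, so its counts are uncertain. TNFSF13B, which encodes BAFF, had 3, 9 and 2 counts in TACI short, 1, 3 and 2 in TACI long and 1, 1 and 3 in parental cells, too few to be tested.

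Of 15 genes of the ligands and of the heparan sulfate chains to which APRIL and TACI bind, 13 were tested. Against parental cells 3 rose and 2 fell in TACI short, in TACI long 4 rose and 3 fell, and in TACI short against TACI long 3 were higher and 4 lower. The median log2 fold changes were 0.01, 0.08 and -0.07, against 0.03, -0.003 and 0.05 over all tested genes. SDC3, a membrane proteoglycan, averaged 14.8 ± 0.835 CPM in TACI short, 4.86 ± 0.485 CPM in TACI long and 8.53 ± 0.182 CPM in parental cells (SD, n = 3 each). It rose by 0.67 in TACI short and fell by 0.81 in TACI long against parental cells, and differed by 1.48 between the lines (edgeR adjusted p = 1.62e-13). HS6ST1, a 6-O-sulfotransferase of these chains, rose in both lines, by 0.60 in TACI short and 1.09 in TACI long. NDST1, which starts their sulfation, fell in both, by 0.37 and 0.69. The chain polymerase EXT1 rose by 0.55 in TACI short (edgeR adjusted p = 5.72e-07), and the chain initiator EXTL3 rose by 0.45 in TACI long (adjusted p = 2.25e-08).

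TACI and the BAFF receptor can be cut from the cell surface by ADAM10 or ADAM17, and BCMA by gamma-secretase, and all 8 genes of these proteases were tested. Of these, 2 rose and 2 fell in TACI short against parental cells, in TACI long 4 rose and 0 fell, and in TACI short against TACI long 1 was higher and 4 lower, with medians of -0.04, 0.17 and -0.14. APH1B, a gamma-secretase subunit, had 12.6, 13.5 and 11.96 CPM in TACI short, 8.91, 9.80 and 8.53 CPM in TACI long, and 4.74, 4.27 and 3.99 CPM in parental cells. Its groups did not overlap, and it rose by 1.42 in TACI short and 1.07 in TACI long (edgeR adjusted p = 2.36e-12 and 6.15e-10). ADAM10 averaged 75.3, 76.3 and 61.7 CPM in TACI short, TACI long and parental cells. Its ratios of mean CPM to parental cells were 1.22 in TACI short and 1.24 in TACI long, and those lines overlapped. In the edgeR fit, which uses TMM factors where CPM does not, ADAM10 rose by 0.16 and 0.31 in the engineered lines, the first call being lost under 2 alternatives. The gamma-secretase subunit NCSTN fell by 0.38 in TACI short, and had 0.13 in TACI long (edgeR adjusted p = 0.0786).

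Of 15 genes of receptor-proximal signalling, 12 were called in TACI short against parental cells (7 higher, 5 lower) and 6 in TACI long against parental cells (3 higher, 3 lower). TACI short against TACI long had 7 higher and 4 lower. Medians were -0.04, -0.03 and 0.02. TNFAIP3, which encodes the NF-kB feedback inhibitor A20, had 39.6, 44.3 and 43.4 CPM in TACI short, 4.23, 3.31 and 2.85 CPM in TACI long, and 2.85, 4.22 and 3.36 CPM in parental cells. TACI short lay above both other groups, which overlapped. It rose by 3.48 ± 0.15 in TACI short (edgeR adjusted p = 6.67e-08), while its adjusted p in TACI long was 0.993.

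BIRC3, which encodes the ubiquitin ligase cIAP2, had 718, 702 and 695 CPM in TACI short, 89.0, 89.6 and 89.0 CPM in TACI long, and 82.6, 81.6 and 80.5 CPM in parental cells. It was 7.90-fold higher in TACI short than in parental cells and 1.09-fold higher in TACI long (edgeR adjusted p = 1.39e-23 and 0.014), the second call being lost under 5 of 19 alternatives. TRAF3, the adaptor that holds back NIK, averaged 103 ± 3.89 CPM in TACI short, 48.1 ± 1.72 CPM in TACI long and 55.6 ± 1.67 CPM in parental cells (SD, n = 3 each). MAP3K14, which encodes NIK itself, averaged 35.3 CPM in TACI short, 16.9 CPM in TACI long and 17.6 CPM in parental cells. It rose by 0.88 in TACI short, and its log2 fold change in TACI long was -0.06 (edgeR adjusted p = 0.429).

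The adaptor MYD88, which binds the inner part of TACI, had 56.0, 57.7 and 58.2 CPM in TACI short, 104, 105 and 104 CPM in TACI long, and 87.7, 87.3 and 86.0 CPM in parental cells. The groups did not overlap, and the difference of TACI short from TACI long was -0.997 ± 0.04 (edgeR adjusted p = 6.94e-16). CAMLG, which encodes the TACI-binding protein CAML, rose by 0.26 in TACI short (edgeR adjusted p = 3.93e-05), and had -0.09 in TACI long (adjusted p = 0.110). TRAF1 rose by 0.94 in TACI short and fell by 0.53 in TACI long, and TRAF5 fell in both, by 0.53 and 0.73. The tyrosine kinase SYK rose by 0.12 in TACI short and by 0.45 in TACI long.

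Of 15 regulators of B cells and plasma cells, 14 were tested, all but IRF4. Between TACI short and parental cells 9 rose and 2 fell, in TACI long 8 rose and 4 fell, and in TACI short against TACI long 4 were higher and 6 lower, with medians of 0.26, 0.17 and -0.13. NFKB2, the precursor of the non-canonical NF-kB subunit p52, had 304, 299 and 277 CPM in TACI short, 52.4, 55.2 and 53.9 CPM in TACI long, and 75.6, 70.7 and 72.1 CPM in parental cells. TACI short lay above parental cells and TACI long below them. Its partner RELB averaged 169 CPM in TACI short, 61.7 CPM in TACI long and 58.6 CPM in parental cells, and NFKB1 averaged 67.2, 21.7 and 33.1 CPM.

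PRDM1, which drives differentiation into plasma cells, had 10.7, 11.3 and 10.96 CPM in TACI short, 11.3, 11.3 and 10.99 CPM in TACI long, and 4.76, 4.91 and 4.14 CPM in parental cells. Both engineered lines lay above the parental line and overlapped each other. It rose by 1.13 in TACI short and 1.28 in TACI long, and the lines differed by -0.16 (edgeR adjusted p = 0.0771). BACH2, which represses PRDM1 in B cells, averaged 27.5 ± 2.63 CPM in TACI short, 60.7 ± 3.81 CPM in TACI long and 21.99 ± 1.31 CPM in parental cells (SD, n = 3 each). It rose by 0.19 in TACI short and by 1.47 in TACI long. The B-cell factor EBF1 rose by 0.21 and 0.77 in the same lines.

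Of 26 other genes of the TNF receptor family, 17 were tested. In TACI short against parental cells 7 rose and 3 fell, in TACI long 6 rose and 5 fell, and in TACI short against TACI long 8 were higher and 5 lower. CD40, the receptor for T-cell help, had 109, 107 and 104 CPM in TACI short, 36.2, 34.9 and 35.3 CPM in TACI long, and 30.8, 29.8 and 28.98 CPM in parental cells. It rose by 1.70 in TACI short and by 0.25 in TACI long, with no overlap between groups. TNFRSF14, the receptor for LIGHT and BTLA, averaged 3.51 ± 0.695 CPM in TACI short, 0.481 ± 0.0776 CPM in TACI long and 1.61 ± 0.323 CPM in parental cells (SD, n = 3 each). It rose by 0.98 in TACI short and fell by 1.74 in TACI long, and the lines differed by 2.72 (edgeR adjusted p = 4.52e-11).

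Among the remaining named receptors, TNFRSF21 averaged 102 CPM in TACI short, 199.8 CPM in TACI long and 74.1 CPM in parental cells, and it rose in both lines. The low-level genes NGFR and TNFRSF8 also rose in both, NGFR by 1.26 in TACI short and 2.07 in TACI long, and TNFRSF8 by 1.30 and 1.35. TNFRSF4 averaged 0.312, 0.0914 and 0.206 CPM in TACI short, TACI long and parental cells, and its call between the lines (1.60, edgeR adjusted p = 0.022) was lost under 5 alternatives. TNFRSF1B had 6.50, 28.6 and 26.2 CPM in TACI short replicates 1, 2 and 3, 6.69, 5.66 and 3.71 CPM in TACI long, and 5.67, 7.51 and 8.55 CPM in parental cells, so its high values lay in the 2 libraries with more myeloid marker RNA. Its log2 fold change of TACI short against TACI long was 1.79 (edgeR adjusted p = 0.0283), and 0.18 without those 2 libraries (adjusted p = 0.726). TNFRSF1A, LTBR, TNFRSF10D, SDC2 and SDC4, chosen after their values were seen, had the same pattern: SDC2, for example, had 2.34, 21.7 and 23.1 CPM in TACI short replicates 1, 2 and 3. The part of the myeloid RNA in these values was not tested. The other TNF receptor family had median log2 fold changes of 0.58, -0.11 and 0.87 in the 3 comparisons, and the first and last of them take in TNFRSF1B, TNFRSF1A, LTBR and TNFRSF10D, as the medians of the ligand list take in SDC2 and SDC4.

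Set beside the background, the share of tested members called in TACI short against parental cells was 38.5% for the ligand list, 50% for shedding, 80% for receptor-proximal signalling, 78.6% for the regulators and 58.8% for the other TNF receptors, where all genes gave 62.6%. In TACI long against parental cells it was 53.8, 50, 40, 85.7 and 64.7%, where all genes gave 51.1%. Between the lines it was 53.8, 62.5, 73.3, 71.4 and 76.5%, where all genes gave 68.8%. No test sets these lists apart from other genes. Without TACI short replicates 2 and 3 the called members of these lists numbered 5, 4, 11, 13 and 11 in TACI short against parental cells.

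**Figure D4:**
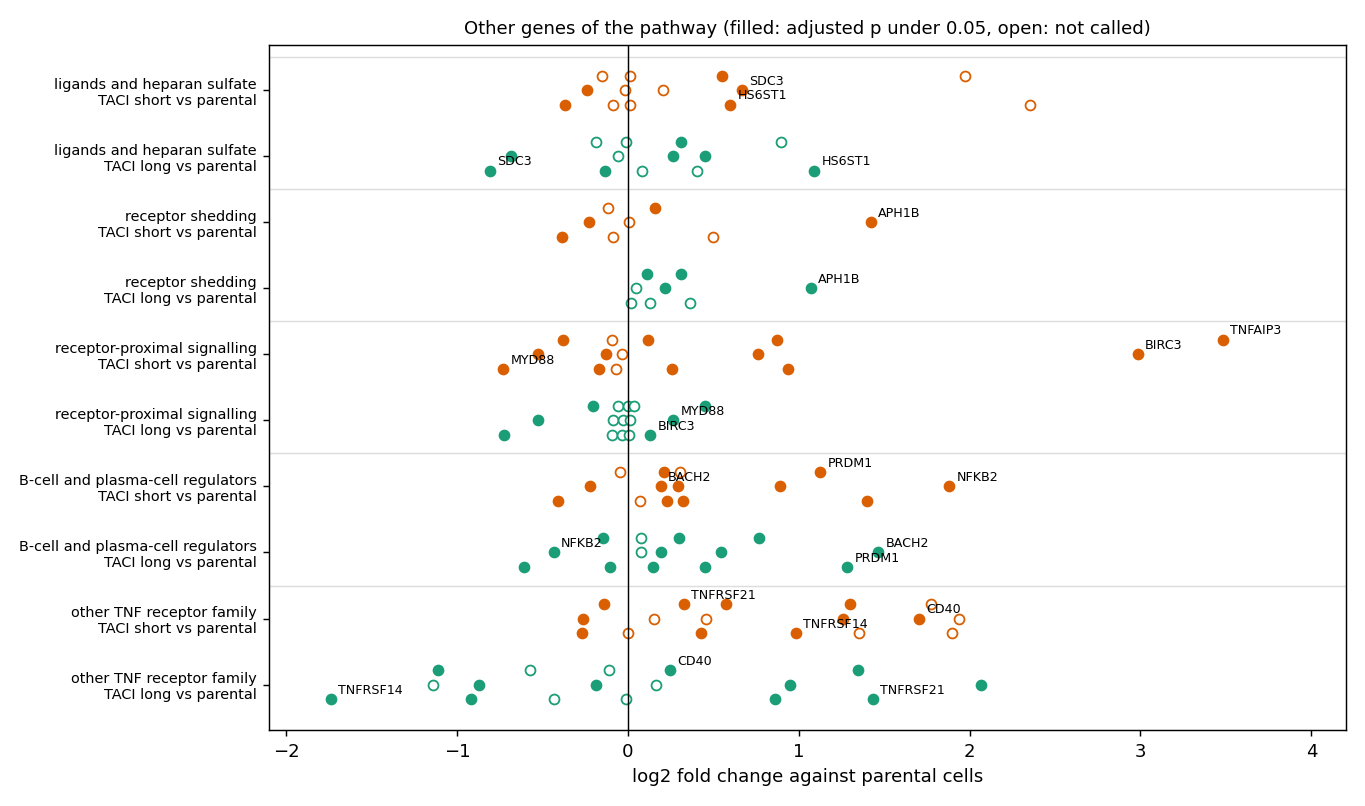
Log2 fold changes against parental cells of the tested genes in 5 lists, TACI short in orange above TACI long in green; filled points were called at an adjusted p under 0.05 and open points were not. NFKB2, SDC3 and TNFRSF14 lie right of 0 in TACI short and left of it in TACI long, MYD88 the reverse, and TNFAIP3 and BIRC3 lie far to the right in TACI short.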

How the data were processed

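Polyadenylated RNA from sorted BJAB cells was made into libraries by the Nextera XT kit, without strand information, per the labels' protocols. The deposited values are raw counts per gene, not normalized by the authors; FastQC, STAR 2.4.0h, HTSeq and build hg38 are named in the submitters' processing notes, while the files have the column layout of featureCounts. The deposited Length column, an exonic length in bases, is 1 of its columns. The annotation release is not given in the sources used here. Of 57500 Ensembl IDs, 56898 matched GENCODE release 29, the source of symbols, exons and sequences.

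CPM is the count over the library total. Genes passing filterByExpr (minimum count 10, total 15) were fitted over all 9 libraries with TMM factors and edgeR 4.0.16's robust quasi-likelihood test in R 4.3.3, with 6 residual degrees of freedom; a call is a Benjamini-Hochberg adjusted p under 0.05 over 16672 genes. Standard errors are the absolute log2 fold change over the square root of F, and approximate. Count totals were 40322136 to 50079203; each counting error quoted follows from the gene's own mean count and covers counting error only. Same-numbered deviations from the group means correlated at 0.43, 0.21 and 0.18 between TACI short and parental libraries. The correlations were -0.12 to 0.07 for TACI long against parental and -0.27 to 0.11 for TACI short against TACI long. Differently numbered libraries were not correlated, so these values cannot show whether the replicate numbers pair the libraries. The labels state no such link. The script was tested on simulated data. No library was a copy of another: their counts differed by a chi-square of 2.39 to 18.1 per degree of freedom within groups. Members, lists and tests were chosen with earlier results of these data known. Named genes are the receptors, up to 4 called genes of greatest absolute change per list and comparison, 7 genes always named (TNFSF13, TNFSF13B, TRAF3, MAP3K14, BIRC3, CAMLG, ADAM10), the 3 genes most like each receptor, and its neighbours. Tried as alternatives were limma-voom 3.58.1, DESeq2 1.42.0, its size factors in edgeR, upper-quartile factors, total counts, other filters, the compared groups alone, a replicate block and libraries left out. All files were used.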

Additional observations from a re-analysis of the deposited data

Results flagged for a closer look

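For 9 of the genes named by the rule, the change against parental cells was called with opposite signs in the engineered lines, and the difference between the lines, tested in the same edgeR fit, was itself called; both comparisons share the parental libraries. As log2 fold changes of TACI short against TACI long, these differences were -2.18 for the receptor TNFRSF17, -0.997 for MYD88 and -0.34 for APH1A, which were lower than parental in TACI short and higher in TACI long. They were 2.72 for TNFRSF14, 2.32 for NFKB2, 1.50 for NFKB1, 1.48 for SDC3, 1.46 for TRAF1 and 0.97 for TRAF3, which were higher than parental in TACI short and lower in TACI long. FAS (0.76), BCL6 (0.44), XBP1 (-0.56) and CD27 (-1.08), list members outside that rule and chosen after their values were seen, met the same conditions. That made 13 of 70 tested receptors and list members, or 18.6%, beside 2580 of all 16672 tested genes, or 15.5%. TNFRSF17 was the only 1 of the 3 BAFF and APRIL receptors among them. For APH1A the change in TACI long against parental cells was small (0.11, edgeR adjusted p = 0.0377), and its call was lost under 7 of 19 alternatives, with adjusted p up to 0.206. For CD27 the change in TACI short against parental cells was small (-0.14, edgeR adjusted p = 0.0263). Its CPM ranges overlapped there, and the ratio of mean CPM was 0.993. Any bearing of the 3.68-fold difference in TNFRSF13B RNA between the lines on these values was not tested. In this design it cannot be told apart from the isoform or from other differences between the engineered lines. No library is labelled as coming from cells given an empty vector.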

How the results depend on the processing

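TNFRSF13B and TNFRSF17 kept direction and call in all 3 comparisons under all 19 alternatives, as did TNFRSF13C in TACI long against parental cells (-0.32 to -0.20). For TNFRSF17 log2 fold changes ran from -0.90 to -0.65 in TACI short and from 1.34 to 1.50 in TACI long against parental cells, and from -2.31 to -2.05 between the lines. TNFRSF13C in TACI short against parental cells lost its call with upper-quartile factors (-0.13), total counts (-0.0829) and without TACI short replicates 2 and 3 (-0.0906), and ran from -0.28 to -0.14 with 1 library left out, where the call was lost without parental replicate 1 or TACI short replicate 2 or 3 (adjusted p = 0.0657, 0.0769 and 0.0697). In TACI short against TACI long it was called with total counts (0.19, adjusted p = 0.0415) and took the other sign without TACI long replicate 1 (-0.0053) or TACI short replicate 1 (-0.0192), in a range of -0.0192 to 0.13 with 1 library left out. The cause was not tested.

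Upper-quartile factors and total counts moved the median log2 fold change of all genes in TACI short against parental cells to 0.11 and 0.16, and the share of calls that were higher to 59.3% and 64.6%, from 50.4%; between the lines that share was 58.8% and 62.4%, from 51.2%. With no filter on low counts, and so over more genes, the median was 0.49 in TACI short against parental cells and 0.63 between the lines. The shares of calls that were higher were then 54.2% and 54.6%. The ligand list had 8 called members in TACI short against parental cells with DESeq2 and without TACI short replicate 1, in place of 5, in a range of 5 to 8. Of 94 other named results, 11 lost a call under an alternative and 5, none of them called, took the other sign. Another 5 gained one: MPRIP, CAMLG and GSPT1 in TACI long against parental cells, and SREBF2 and CENPM in TACI short against parental cells without TACI short replicate 1. Those that took the other sign in TACI short against parental cells were MPRIP (0.0400 with upper-quartile factors, 0.0879 with total counts, 0.0103 without TACI short replicates 2 and 3, and -0.0744 to 0.00746 with 1 library left out), SREBF2 (0.0236, 0.0714 and 0.0326 with upper-quartile factors, total counts and without replicates 2 and 3), CENPM (0.0428 with total counts, 0.0516 without replicates 2 and 3) and TNFSF13 (-0.0771 to 0.368 with 1 library left out). In TACI long against parental cells it was ZNF624 (-0.0317 without parental replicate 1).

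With the replicate number as a block, TNFRSF17 gave -0.78, 1.40 and -2.18 in the 3 comparisons, TNFRSF13C gave -0.21 in TACI short against parental cells (adjusted p = 0.0448), with 10501, 8620 and 11495 genes called. The block changed no call of a named gene against parental cells, and 1 between the lines: TNFRSF1B (1.64, adjusted p = 0.0741). Whether the replicate numbers pair the libraries is not known.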
